A study of Mus musculus with 20 samples.

Results

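Liver RNA of ob/ob mice that breathed fine airborne particles (PM2.5) and drank metformin was compared with liver RNA of ob/ob mice that breathed PM2.5 without the drug. The comparison uses 10 of the 20 mice of the series, 5 in each group, chosen by their labels alone. The other 10 mice, 5 labelled filtered air and 5 labelled metformin, enter as background and where the metformin difference under PM2.5 is set against that without it.

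Every mouse was male and carried the ob/ob genotype, the homozygous loss of leptin that makes mice eat to obesity with a fatty liver, so the PM2.5 controls share that defect with the treated mice. PM2.5 was given in a particle chamber for 6 hours a day over 2 weeks, and metformin was given in the drinking water at a dose set by body weight. Liver was taken at the end of the 2 weeks, and 1 array was run per mouse. The group with both treatments is called the combined group here. The labels give the metformin group no air and give no litter, cage, batch or time of day for any mouse. The p-values therefore measure the spread between these samples only. Mice are numbered 1 to 5 in each group in deposited order, and equal numbers pair no animals.

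Metformin is a glucose-lowering drug that enters hepatocytes through organic cation transporters, weakly inhibits respiratory complex I and raises the activity of the energy-sensing kinase AMPK, which restrains fatty acid and glucose synthesis. The liver is mostly hepatocytes by mass, with sinusoids lined by a fenestrated endothelium and patrolled by Kupffer cells, the resident macrophages that take up particles, bacteria and dying cells from blood. Much of hepatocyte metabolism also follows the circadian clock, in which Arntl and its partners switch on the Per, Cry and Dbp genes that oscillate against them.

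In the combined group the gene groups with the largest shares that differed were Kupffer cell genes, of which 13 of 26 were lower, endothelial genes, of which 8 of 19 were lower, and nuclear transport, in which 8 of 28 genes were higher and 3 lower. Without combined mice 2 and 4, whose arrays had the highest negative-control signal, 1 Kupffer cell gene and 3 endothelial genes were lower. Then 4 nuclear transport genes were higher and none lower. With negative-control signal as a covariate, no Kupffer cell or endothelial gene passed and 3 nuclear transport genes were higher. Single genes with large differences were the clock-driven factor Dbp and the bile acid enzyme Cyp7a1, which were higher, and the fasting-induced kinase Pdk4, which was lower. Of 11844 genes tested, 1383 passed an adjusted p of 0.05 (limma, Benjamini-Hochberg), which is 11.7% of them. Of these, 823 were higher with metformin (6.95%) and 560 lower (4.73%), and 1019 differed by at least 1.5-fold. The split of 59.51% higher became 45.68% after quantile normalization of the arrays, so the balance of directions depends on scaling. The median difference over the tested genes was -0.01 log2, on arrays whose scaling by the authors is not known, so a general shift cannot be seen from it.

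The counts rest in part on arrays that stand apart. The median log2 signal of the probe sets annotated as negative controls was 4.41, 4.50, 4.43, 4.34 and 4.52 in PM2.5 mice 1 to 5. In combined mice 1 to 5 it was 4.59, 4.79, 4.46, 4.69 and 4.44. Not all of these probe sets were dim. Their 95th percentile, 8.15 to 8.98 on these arrays, lay above the median of the non-control probe sets, 4.848 to 4.915. What they measure beside background was not tested. Combined mice 1, 2 and 4 lay above every PM2.5 array, mice 2 and 4 by most, and mice 3 and 5 lay within the PM2.5 range. The group difference of 0.15 gave p = 0.0794 in a two-sided exact permutation test over the 252 splits of 10 arrays (0.119 adjusted over 3 tests). The positive-control median differed more clearly, at 9.44 to 9.59 in the combined mice against 9.16 to 9.28 in the PM2.5 mice, a difference of 0.30 (exact permutation p = 0.00794, the smallest that 5 against 5 allows, 0.0238 adjusted). Positive-control signal and treatment cannot be told apart, since the groups do not overlap.

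**Figure D1:**
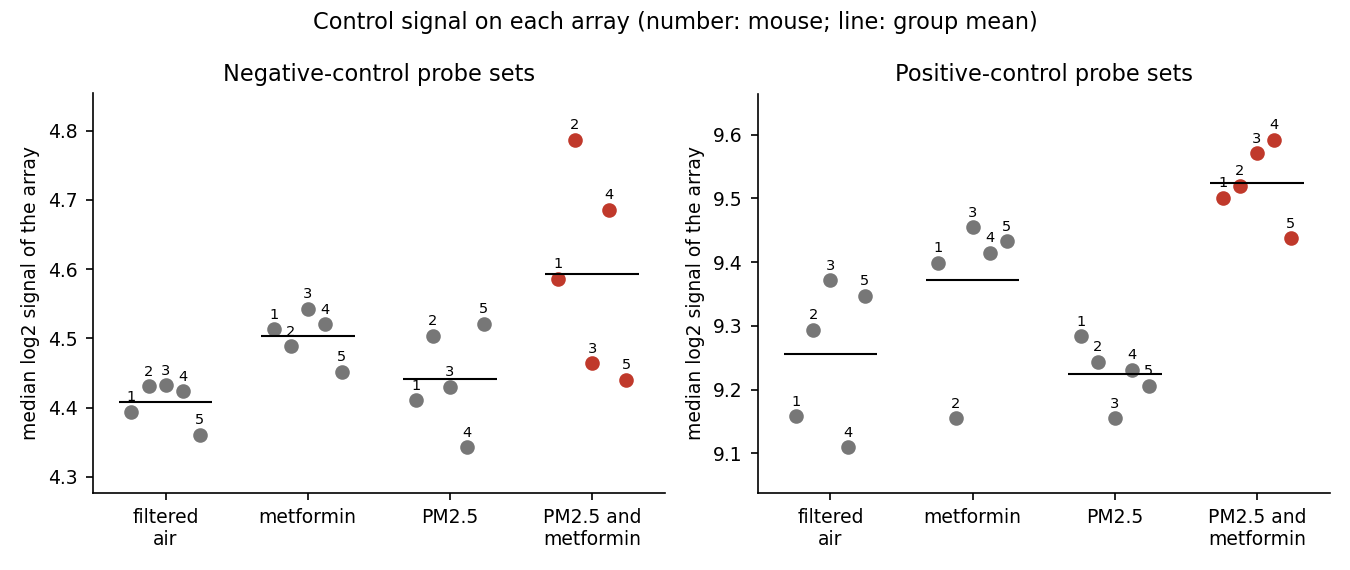
Median log2 signal of the negative-control probe sets (left) and the positive-control probe sets (right) on each array, by group, with mouse numbers and a line at each group mean. Combined mice 2 and 4 have the highest negative-control medians, 4.79 and 4.69, and all 5 combined arrays lie above all 5 PM2.5 arrays in positive-control signal.

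The lists and leading genes below were therefore also fitted without combined mice 2 and 4, and with each array's negative-control median as a covariate. Without those mice 206 genes passed (172 higher, 1.45%, and 34 lower, 0.287%), and with the covariate 79 passed (72 higher, 0.608%, and 7 lower, 0.0591%). All 1383 genes kept their sign in both fits, with differences smaller in the median: that of the 823 higher genes went from 0.69 to 0.56 and 0.53, and that of the 560 lower genes from -0.73 to -0.47 and -0.43. The genes were chosen on arrays that these fits use again. A kept sign, here and in the fits that follow, was therefore largely given in advance and is no separate support. A set of 73 genes passed in all 3 fits, 67 higher and 6 lower. With only combined mice 3 and 5, a choice made after the data were seen, 24 genes passed and all 1383 kept their sign. With the positive-control median as covariate, also added later, none passed in limma (1204 at an unadjusted p under 0.05, against 3203 without a covariate) and 1377 of the 1383 kept their sign. The combined mice also varied more among themselves than the other groups, with pairwise array correlations down to 0.972 against 0.988 in the PM2.5 group, and a fit on the 10 compared arrays alone called 509 genes. Leaving out 1 mouse at a time gave 637 genes (without combined mouse 4) to 2143 (without combined mouse 5). It gave 753 without combined mouse 2, 772 without PM2.5 mouse 4 and 844 without PM2.5 mouse 3, and 565 of the 1383 passed in all 10 of these fits. For 376 of the 1383 both group means were under 8.36, the mean over arrays of the negative-control 95th percentile. Of the genes named below that passed, Timd4, Emcn, Tek, Clec1a, Pkhd1, Npas2, Pnpla3, Hilpda, Ndufb10, Tiparp, Akr1b8, Nfkbiz, Egr1, Phlda1 and Cyp2u1 are among them.

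Kupffer cell and macrophage genes made the largest block among the falls. Of 28 listed markers 26 were tested; 13 fell and none rose, against 4.73% of tested genes lower, and the list's median difference was -1.005 log2. The count changed with the arrays of high negative-control signal left out: without combined mice 2 and 4 the median was -0.61 and 1 member passed, and with the covariate it was -0.48 and none passed. Of the 26, 25 were below 0, with the integrin gene Itgam the exception at 0.30, and 21 were below 0 when only combined mice 3 and 5 were kept.

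The marker that fell furthest was Vsig4, a complement receptor by which Kupffer cells capture bacteria. Its log2 signal was 13.02, 13.02, 13.75, 13.37 and 13.28 in PM2.5 mice 1 to 5 and 11.002, 8.75, 10.47, 10.38 and 13.28 in combined mice 1 to 5. Combined mice 1 to 4 lay below every PM2.5 mouse, and mouse 5 lay among them. Vsig4 fell by 2.51 ± 0.47 log2 (SE, adjusted p = 0.00274), and it was the member that still passed without combined mice 2 and 4, at -1.70 (adjusted p = 0.0347). That SE rests on 1 spread taken over all 4 groups. The SD of Vsig4 was 1.63 in the combined mice and 0.30 in the PM2.5 mice.

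The same shape recurred in C1qb, a chain of the complement starter C1q made largely by macrophages. Signals were 10.90, 11.02, 11.14, 11.50 and 11.32 under PM2.5 and 9.30, 7.73, 8.72, 8.44 and 11.71 in the combined mice. Combined mouse 5 was above all PM2.5 mice, and the other 4 were below them all. The difference was -1.99 ± 0.44 (adjusted p = 0.00665), and -1.26 without mice 2 and 4 (adjusted p = 0.124). The SD of C1qb was 1.53 in the combined mice and 0.24 in the PM2.5 mice.

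The promoters of these 2 genes are shown because the block they belong to is the largest among the falls and because they hold a core motif of PU.1, the factor that specifies macrophages. The sequences are the 250 bases before the gene start from RefSeq (GRCm38.p6, minus strand of chrX:96293439-96293688 for Vsig4 and of chr4:136886201-136886450 for C1qb), written 5′ to 3′ with GAGGAA in capitals. The motif starts 155 and 53 bases before the start of Vsig4 and 30 bases before that of C1qb.
Vsig4: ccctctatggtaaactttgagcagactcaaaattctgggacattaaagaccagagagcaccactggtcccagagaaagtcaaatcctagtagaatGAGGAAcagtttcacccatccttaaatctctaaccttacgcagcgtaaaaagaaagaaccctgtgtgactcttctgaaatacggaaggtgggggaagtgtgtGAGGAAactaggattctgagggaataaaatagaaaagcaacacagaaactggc
C1qb: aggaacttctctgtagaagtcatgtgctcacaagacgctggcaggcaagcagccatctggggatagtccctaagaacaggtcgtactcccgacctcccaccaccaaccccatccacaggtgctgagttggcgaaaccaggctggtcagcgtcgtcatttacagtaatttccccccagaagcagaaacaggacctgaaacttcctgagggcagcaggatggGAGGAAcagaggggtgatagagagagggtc
Searched on both strands, GAGGAA occurred in 11 of the 19 Kupffer cell and macrophage genes with a promoter sequence (57.9%), in 4 of 12 endothelial genes (33.3%), in 0 of 8 hepatocyte genes and in 22.0% of the 9637 tested genes with one. Among genes that fell it occurred in 23.0% and among those that rose in 19.5%. These motifs were picked after the shares of several had been seen, and a match is a description of the letters only.

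Other Kupffer cell markers followed the pattern of Vsig4. Clec4f, a lectin of mouse Kupffer cells, was 9.92 to 10.98 under PM2.5 and 8.53, 7.48, 8.63, 8.90 and 10.93 in combined mice 1 to 5, a difference of -1.61 ± 0.40 (adjusted p = 0.0138). Timd4, the receptor for phosphatidylserine on dying cells, fell by 0.85 ± 0.23 (adjusted p = 0.0201). Adgre1, which encodes the F4/80 antigen, fell by 1.47 ± 0.30 (adjusted p = 0.00482), and Msr1, a scavenger receptor for modified lipoproteins, by 1.498 ± 0.29 (adjusted p = 0.00317). C1qa, C1qc, Folr2, Csf1r, Tyrobp, Cd9 and Mrc1 completed the 13, with differences between -0.60 and -1.82. Clec4f, Timd4, C1qa, C1qc, Folr2, Csf1r, Tyrobp, Cd9 and Mrc1 are named as members of this count, chosen after their values were seen. Without mice 2 and 4 Clec4f, Timd4, Adgre1 and Msr1 stood at -1.14, -0.72, -1.13 and -1.08 and did not pass. In each of Clec4f, C1qa, C1qc and Csf1r the combined mouse 5 was within the PM2.5 range.

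Across the 26 genes, the median deviation from the PM2.5 mean was -0.87, -1.71, -1.33, -1.21 and 0.35 in combined mice 1 to 5. Mouse 3, whose negative-control signal was within the PM2.5 range, lay between mice 2 and 4, and mouse 5, also within that range, was not low. The summed linear signal of the list ran from 47960 to 75560 in PM2.5 mice and from 18920 to 77900 in combined mice. Leaving out combined mouse 5 raised the number that fell to 19, leaving out PM2.5 mouse 3 or combined mouse 2 lowered it to 8, and the others gave 9 to 13. Over all 11844 tested genes, 1116 fell without combined mouse 5, 290 without PM2.5 mouse 3 and 214 without combined mouse 2, against 560 with every mouse. Without PM2.5 the metformin mice stood at -0.43 against filtered air in the median of this list, and PM2.5 mice at 0.40, and no member passed the test of whether metformin differed with and without PM2.5. In whole liver, fewer macrophages and less of these RNAs per macrophage cannot be told apart.

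Several of the largest falls in the whole table, taken without regard to any list, had this profile across mice. Pla2g7, a lipase that inactivates platelet-activating factor, was 9.08 to 9.71 under PM2.5 and 6.97, 5.73, 6.96, 6.20 and 9.22 in combined mice 1 to 5 (difference -2.32 ± 0.44, adjusted p = 0.00268). Fabp7, a fatty acid carrier found in Kupffer cells, was 10.31 to 11.03 and then 8.83, 6.30, 8.54, 8.46 and 11.03 (-2.14 ± 0.52, adjusted p = 0.0111). In both, combined mouse 5 sat with the PM2.5 mice and the other 4 sat below them. Mr1, which presents microbial vitamin metabolites to T cells, fell by 2.22 ± 0.46 (adjusted p = 0.00498). Fabp5, a related fatty acid carrier, fell by 1.99 ± 0.51 (adjusted p = 0.0157), and Vcam1, an adhesion molecule, by 1.93 ± 0.48 (adjusted p = 0.0138). Without combined mice 2 and 4 these 5 genes stood at -1.62, -1.31, -1.50, -1.49 and -1.17, with adjusted p of 0.0532, 0.136, 0.103, 0.200 and 0.225.

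Endothelial genes formed a second block. All 19 listed markers were tested; 8 fell (Fcgr2b, Clec4g, Ehd3, Oit3, Pecam1, Emcn, Lyve1 and Tek), against 4.73% of tested genes lower, none rose, and the median difference was -0.43. Without combined mice 2 and 4, Fcgr2b, Clec4g and Ehd3 still passed and the median was -0.29. With the covariate none passed and the median was -0.35. Without PM2.5 mouse 4 or combined mouse 2, 5 fell. The list's median deviation was negative in each combined mouse, at -0.32, -0.85, -0.32, -0.65 and -0.17, and the summed signal was 10670 to 31410 against 30650 to 40790 under PM2.5.

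Clec4g encodes LSECtin, a lectin of sinusoidal endothelium. Its signal was 12.77, 12.36, 12.60, 12.75 and 12.45 in PM2.5 mice and 11.05, 10.17, 10.94, 10.82 and 12.37 in combined mice, so only combined mouse 5 reached the PM2.5 range. The fall was 1.51 ± 0.28 (adjusted p = 0.00227), and 1.13 without mice 2 and 4 (adjusted p = 0.0403). Ehd3, an endocytic recycling protein, ran from 10.26 to 10.67 under PM2.5 and was 8.13, 7.47, 9.18, 7.33 and 10.24 in combined mice 1 to 5, without overlap. It fell by 2.00 ± 0.38 (adjusted p = 0.00261), with an SD of 1.23 in the combined mice and 0.17 in the PM2.5 mice. Fcgr2b, the inhibitory antibody receptor that clears immune complexes from the sinusoid, fell by 1.33 ± 0.24 (adjusted p = 0.00220), also without overlap. Lyve1, the hyaluronan receptor, fell by 1.71 ± 0.48 (adjusted p = 0.0259) and Pecam1, a junction protein of all endothelium, by 0.77 ± 0.18 (adjusted p = 0.00917).

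F8, coagulation factor VIII, which the liver makes in its sinusoidal endothelium, fell in all 3 fits. Signals were 13.13, 12.71, 13.06, 13.03 and 12.63 in PM2.5 mice and 11.25, 11.03, 11.15, 11.30 and 12.51 in combined mice. The groups did not overlap, although combined mouse 5 lay just under the PM2.5 range and apart from the other 4. F8 fell by 1.47 ± 0.22 (adjusted p = 0.000633), by 1.28 without mice 2 and 4 (adjusted p = 0.0147) and by 1.11 with the covariate (adjusted p = 0.0320). With only combined mice 3 and 5 it stood at -1.08 (adjusted p = 0.103). Groups did not overlap for 751 of the tested genes (6.34%), with the combined mice higher for 4.44% and lower for 1.9%.

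Markers of other cells passed rarely. Above the 95th percentile of the negative controls lay the means of 13 of 26 macrophage and 9 of 19 endothelial markers. Of 13 hepatocyte markers 11 were tested, all with a mean above that level. Their median signal was 18.11, near the highest signal of any array, 19.03, and whether such signals can show a change was not tested. No hepatocyte marker passed, the list's median was -0.07, and the lowest p belonged to G6pc at -0.56 ± 0.20 (adjusted p = 0.0747). None of 17 stellate cell and fibroblast markers passed (median -0.26), the lowest p being that of Rgs5 at -0.44 ± 0.17 (adjusted p = 0.0955). Among 4 tested bile duct markers the fibrocystin gene Pkhd1 rose by 0.85 ± 0.27 (adjusted p = 0.0448), and without combined mice 2 and 4 it did not pass (0.80, adjusted p = 0.233). No tested marker of neutrophils (5), T and NK cells (4), B and plasma cells (1), red cells (2), adipocytes (5) or acinar pancreas (4) passed, and most listed markers of these cells were too dim to test. All 5 adipocyte genes were below 0, with a median of -0.59 (-0.07 without combined mice 2 and 4), and the bile duct list had a median of -0.41 (-0.31 without them).

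**Figure D2:**
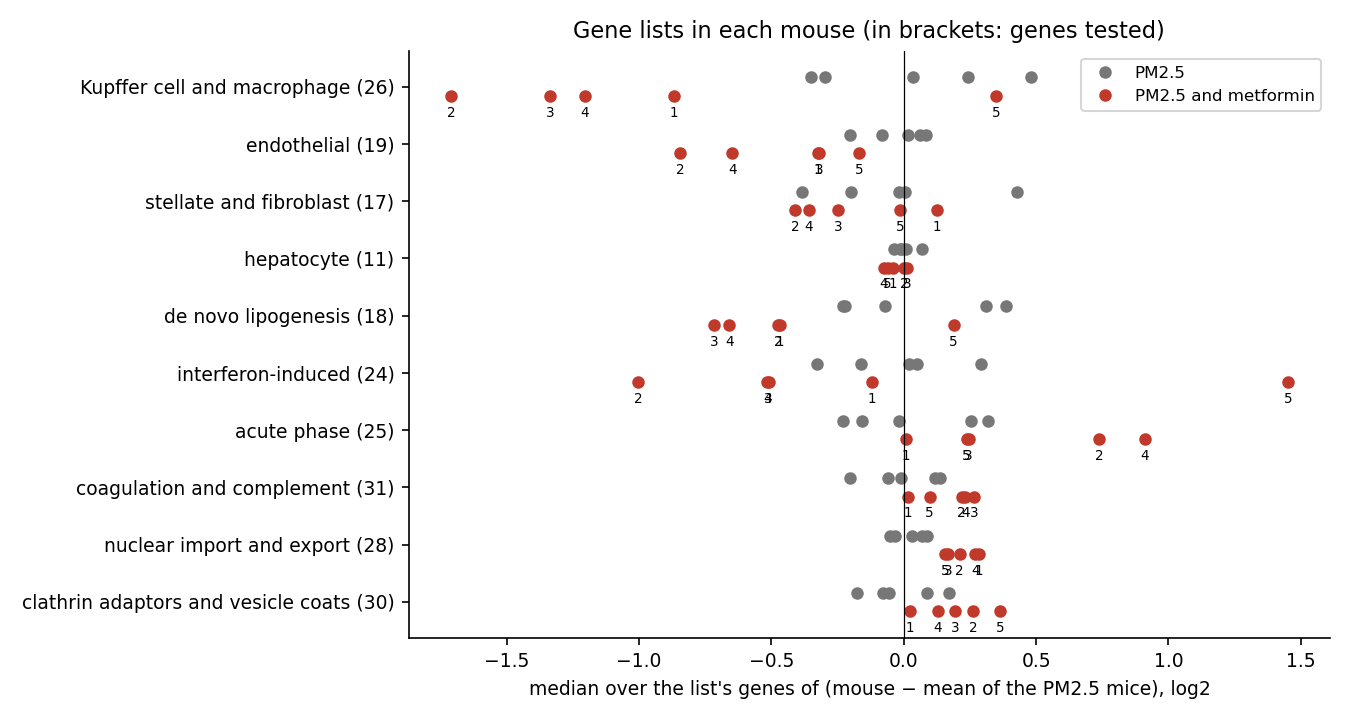
For 10 gene lists, the median over the list's tested genes of each mouse's deviation from the mean of the PM2.5 mice, in log2, with PM2.5 mice in grey and combined mice in red and numbered. Combined mice 1 to 4 lie at or below -0.87 for the macrophage list while mouse 5 lies at 0.35, the hepatocyte list stays near 0, and the nuclear transport list lies between 0.16 and 0.28 in all 5 combined mice.

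The falls that held in all 3 fits were 6: Pdk4, F8, Sgk1, Plpp1, Mknk2 and Clec1a, of which Plpp1, Mknk2 and Clec1a are named after their values were seen. All 6 also passed whichever single mouse of the 10 was left out. Pdk4 encodes the kinase that closes pyruvate dehydrogenase and spares glucose during fasting. Its signal was 11.65, 11.70, 9.70, 10.59 and 11.60 under PM2.5 and 8.31, 7.63, 8.32, 7.67 and 9.98 in combined mice. Combined mouse 5 was above PM2.5 mouse 3, and the other 4 were below all PM2.5 mice. Pdk4 had the largest fall among the genes named here. It fell by 2.66 ± 0.41 (adjusted p = 0.000742), by 2.18 without mice 2 and 4 (adjusted p = 0.0172) and by 2.29 with the covariate (adjusted p = 0.0316). Against filtered air Pdk4 stood at 1.66 in the PM2.5 mice (adjusted p = 0.0211) and at -1.005 in the combined mice (adjusted p = 0.0591).

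Sgk1, a kinase induced by glucocorticoids and salt stress, was 9.85, 10.33, 9.88, 10.61 and 10.53 under PM2.5 and 9.01, 8.82, 8.81, 8.99 and 9.37 in combined mice. The groups did not overlap, and the combined mice were closely spaced. It fell by 1.24 ± 0.20 (adjusted p = 0.000996), by 1.18 without mice 2 and 4 and by 1.11 with the covariate. It was the only one of 17 glucocorticoid-induced genes tested to pass, beside 4.73% of tested genes lower and 11.7% passing in either direction. The list's median was -0.13. Plpp1, a phosphatase of lipid phosphates, fell by 1.24 ± 0.19 (adjusted p = 0.000633), Mknk2, a kinase of the translation factor eIF4E, by 1.06 ± 0.18 (adjusted p = 0.00150), and Clec1a, a lectin-like receptor, by 0.83 ± 0.15 (adjusted p = 0.00227). Against filtered air, Sgk1 stood at 1.22 in the PM2.5 mice (adjusted p = 0.00195) and at -0.02 in the combined mice (adjusted p = 0.943). Plpp1, Mknk2 and Clec1a stood at 0.43, -0.26 and 0.40 in the PM2.5 mice and at -0.815, -1.32 and -0.43 in the combined mice. These differences share arrays with the main comparison.

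Among clock genes, Dbp and Per3 rose, and Arntl, Npas2 and Wee1 fell. Dbp, an output factor of the clock, was 11.56, 12.22, 13.14, 11.87 and 12.23 in PM2.5 mice and 14.02, 15.21, 13.32, 14.43 and 13.48 in combined mice. All combined mice were above all PM2.5 mice, mouse 2 furthest. Dbp rose by 1.89 ± 0.32 (adjusted p = 0.00153), by 1.40 without mice 2 and 4 (adjusted p = 0.0269) and stood at 1.27 with the covariate (adjusted p = 0.0673).

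Per3, a clock repressor, was 6.91, 7.54, 7.72, 6.57 and 7.26 under PM2.5 and 8.92, 10.63, 8.06, 8.66 and 8.05 in combined mice, again without overlap. Its difference was 1.66 ± 0.42 (adjusted p = 0.0150), and 1.15 without mice 2 and 4 (adjusted p = 0.151). The activators were lower: Arntl, 9.43 to 10.56 under PM2.5 and 8.77, 8.94, 9.86, 9.27 and 9.64 in combined mice, fell by 0.96 ± 0.26 (adjusted p = 0.0221), and Npas2 by 0.90 ± 0.28 (adjusted p = 0.0427). Neither passed without mice 2 and 4, at -0.83 and -0.71 (adjusted p = 0.181 and 0.305). Per3, Arntl and Npas2 were the members that passed among 16 core clock genes, beside 11.7% of tested genes passing in either direction. Against filtered air they stood at -0.69, 1.09 and 0.31 in the PM2.5 mice, where only Arntl passed (adjusted p = 0.0196). In the combined mice they stood at 0.975, 0.13 and -0.59 against filtered air. Of 13 output genes, Dbp rose and Wee1, a mitotic inhibitor kinase under clock control, fell by 0.91 ± 0.29 (adjusted p = 0.0440), and stood at -0.76 without mice 2 and 4 (adjusted p = 0.276). Per2 stood at 0.53 ± 0.22 (adjusted p = 0.127) and Nr1d1 at 0.54 ± 0.25 (adjusted p = 0.156). Arntl, Npas2 and Wee1 passed in 6, 2 and 3 of the 10 fits that leave out 1 mouse, and Per3 in all 10. The labels give no time of death, so treatment and time of day cannot be told apart.

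The Per3 promoter is shown because it holds the D-box motif TTATGTAA, which Dbp is known to bind, at 2 places. It is the 250 bases before the start of Per3 from RefSeq (GRCm38.p6, minus strand of chr4:151044666-151044915), with the motif in capitals 205 and 158 bases before the start.
Per3: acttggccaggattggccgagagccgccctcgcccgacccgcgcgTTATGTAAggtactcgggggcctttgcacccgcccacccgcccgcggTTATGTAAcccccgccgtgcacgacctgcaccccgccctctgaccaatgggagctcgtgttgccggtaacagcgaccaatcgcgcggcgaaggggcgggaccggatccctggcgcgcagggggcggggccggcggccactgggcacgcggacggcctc
TTATGTAA on either strand was present in 0.581% of the promoters of tested genes, in 0.892% of those of genes that rose and in 0.446% of those of genes that fell. The E-box CACGTG, the motif of the Arntl complex, was present in 8.2%, 9.21% and 7.81% in the same order.

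Of the 67 rises that held in all 3 fits, the largest were those of Egr1, Ptprf, Synrg, Phlda1 and Hectd4, and Phlda1 is named after its values were seen. The PM2.5 mean of Phlda1, 4.02, lay below 4.49, the mean over arrays of the negative-control median, so its rise has no measured size. Synrg, which encodes synergin gamma, a partner of the AP1 clathrin adaptor, was 7.38, 7.67, 7.51, 7.32 and 7.68 in PM2.5 mice and 8.999, 9.33, 9.16, 10.11 and 9.01 in combined mice. The lowest combined mouse was above the highest PM2.5 mouse by more than either group's SD. Synrg rose by 1.81 ± 0.18 (adjusted p = 1.06e-05), by 1.54 without mice 2 and 4 (adjusted p = 2.12e-05) and by 1.55 with the covariate (adjusted p = 0.00108). In the metformin mice without PM2.5 it stood 0.08 above filtered air, and in the PM2.5 mice 0.01.

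Its promoter is given as that of the gene with the lowest adjusted p. It is the 250 bases before the start from RefSeq (GRCm38.p6, plus strand of chr11:83964181-83964430), with a CACGTG 70 bases before the start in capitals.
Synrg: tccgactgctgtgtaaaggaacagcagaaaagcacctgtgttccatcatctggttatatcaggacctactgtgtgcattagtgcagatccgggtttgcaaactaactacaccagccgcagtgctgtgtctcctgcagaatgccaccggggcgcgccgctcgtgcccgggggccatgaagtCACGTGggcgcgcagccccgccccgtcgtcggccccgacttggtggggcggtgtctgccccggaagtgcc
A GC box, GGGCGG on either strand, was found in 67.3% of the promoters of genes that rose, 51.3% of those that fell and 54.4% of all tested, and in 4 of the 19 of the macrophage list (21.1%).

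Ptprf, the receptor tyrosine phosphatase LAR, was 8.78, 8.99, 9.58, 9.34 and 9.81 under PM2.5 and 11.54, 11.25, 11.004, 11.57 and 10.19 in combined mice. Here the mouse nearest the PM2.5 range was combined mouse 5. Ptprf rose by 1.81 ± 0.25 (adjusted p = 0.000449), by 1.61 without mice 2 and 4 and by 1.49 with the covariate (adjusted p = 0.00967 and 0.0178). Hectd4, a large ubiquitin ligase, rose by 1.53 ± 0.21 and Plxnb2, a semaphorin receptor, by 1.49 ± 0.22, both without overlap between groups and both passing in all 3 fits. Fam214a rose by 1.49 ± 0.32 (adjusted p = 0.00630) and was at 1.06 without mice 2 and 4 (adjusted p = 0.0792).

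Of 28 nuclear import and export genes tested, 8 rose and 3 fell, against 6.95% and 4.73% of tested genes, with a median of 0.26. Xpo6, the exporter of actin, was 9.77, 10.20, 9.98, 9.71 and 10.28 under PM2.5 and 11.13, 11.81, 11.49, 11.96 and 10.91 in combined mice. All combined mice were above all PM2.5 mice. Xpo6 rose by 1.47 ± 0.20 (adjusted p = 0.000414), by 1.19 without mice 2 and 4 (adjusted p = 0.00803) and by 1.10 with the covariate (adjusted p = 0.0118). The exporter Xpo7 rose by 0.91 ± 0.14 and the pore protein Nup153 by 0.80 ± 0.13, and both passed in all 3 fits; Nup98, another pore protein, rose by 0.74 ± 0.15 and also passed without mice 2 and 4. The 3 that fell were the importins Kpna1 (-0.90 ± 0.21), Ipo5 (-0.54 ± 0.15) and Kpna3 (-0.42 ± 0.13), and none of these passed without mice 2 and 4. The 8 that rose became 5 without PM2.5 mouse 4 or combined mouse 4, and the 3 that fell became 1 without PM2.5 mouse 3 or 4 or combined mouse 2 or 4. Nup98, Kpna1, Ipo5 and Kpna3 are named after their values were seen.

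Of 28 splicing factors tested, 6 rose, against 6.95% of tested genes, none fell, and the median was 0.14. Rbm5, a regulator of exon choice, was 8.84 to 9.63 under PM2.5 and 10.24, 9.89, 10.21, 10.06 and 10.65 in combined mice, without overlap. It rose by 1.05 ± 0.17 (adjusted p = 0.00129), by 1.21 without mice 2 and 4 and by 1.35 with the covariate, both passing. Snrnp200, the helicase that opens the U4/U6 duplex, rose by 0.88 ± 0.16 and passed without mice 2 and 4 (0.78, adjusted p = 0.0337), and Hnrnpd, an AU-rich RNA-binding protein, rose by 0.96 ± 0.19 and did not (0.68, adjusted p = 0.0818). Of 30 clathrin and coat genes, 4 rose and 2 fell (median 0.17), beside 6.95% and 4.73% of tested genes: Synrg, Cltc, the clathrin heavy chain, at 0.65 ± 0.15, and the COPII members Sec24d and Sec31a rose, while Copa, of the COPI coat, fell by 1.00 ± 0.24 and Sec13 by 0.67 ± 0.21. Apart from Synrg none of these 6 passed without mice 2 and 4, and the 4 that rose became 2 without PM2.5 mouse 1, 3 or 4 or combined mouse 2, 3 or 4. Sec24d, Sec31a and Sec13 are named after their values were seen.

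Genes that rose spanned more of the genome than other genes. The median span from start to end was 51.3 kb for genes that rose, 21.9 kb for genes that fell and 22.9 kb for the tested genes, and it was 70.3 kb for the 172 that rose without combined mice 2 and 4. Over 4 bins of 2961 genes by span, 2.97%, 4.76%, 6.42% and 13.6% rose, from the shortest to the longest. The share that fell was 3.92%, 5.81%, 5.4% and 3.78%. The median difference of the longest bin was 0.08, and 0.11 both without mice 2 and 4 and with the covariate, and each combined mouse was above 0 there (0.06 to 0.13). The same bin stood at 0.06 for metformin against filtered air and at 0.07 for PM2.5 against filtered air; the latter shares arrays with both of the others. Whether array signal itself varies with gene span was not tested.

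**Figure D3:**
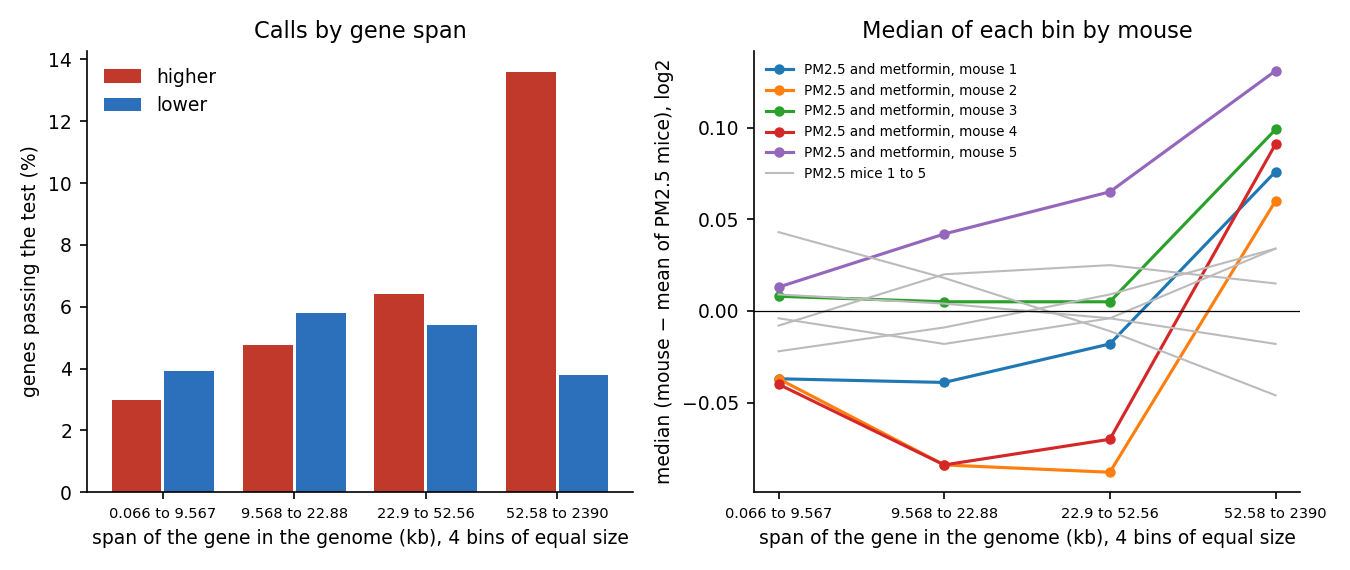
Left, the share of genes passing the test in each of 4 equal bins of gene span (kb), higher in red and lower in blue; right, the median deviation in log2 from the mean of the PM2.5 mice for each bin, with a line per mouse. The share that rose goes from 2.97% in the shortest bin to 13.6% in the longest, where all 5 combined mice lie above 0.

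In bile acid synthesis the gene with the largest difference was Cyp7a1, the rate-limiting enzyme of the classic pathway. Its signal was 16.18, 14.71, 15.52, 14.62 and 14.84 in PM2.5 mice and 17.27, 16.15, 17.04, 17.24 and 16.24 in combined mice. Only PM2.5 mouse 1 reached into the combined range. Cyp7a1 rose by 1.61 ± 0.38 (adjusted p = 0.00939) and was as large without mice 2 and 4, at 1.68 (adjusted p = 0.0533), and with the covariate, at 1.61 (adjusted p = 0.115), though it missed the threshold in both. Abcb4, the canalicular phospholipid exporter, rose by 0.56 ± 0.16 (adjusted p = 0.0262), and stood at 0.61 without mice 2 and 4 (adjusted p = 0.0782). These 2 were the members that passed of 22, whose median was -0.01, beside 11.7% of tested genes passing in either direction.

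Fatty acid synthesis genes were partly lower. Of 18 tested, 5 fell, against 4.73% of tested genes (Elovl6, Thrsp, Pnpla3, Acaca and Me1), none rose, and the median was -0.37. Without combined mice 2 and 4 none passed but the median was -0.41, and with the covariate it was also -0.41. By mouse the median deviation was -0.47, -0.47, -0.72, -0.66 and 0.19 in combined mice 1 to 5, so mouse 5 again lay with the PM2.5 mice. The 5 that fell became 8 without combined mouse 5, 3 without combined mouse 1 or 2, 2 without PM2.5 mouse 3 or 5 or combined mouse 3, and 1 without PM2.5 mouse 4 or combined mouse 4. Without combined mouse 5, 1116 of all 11844 tested genes fell, against 560 with every mouse.

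Elovl6, which lengthens palmitate, was 15.97 to 16.58 under PM2.5 and 15.12, 14.60, 13.78, 12.94 and 16.18 in combined mice. It fell by 1.69 ± 0.40 (adjusted p = 0.0101) and stood at -1.18 without mice 2 and 4 (adjusted p = 0.124). Thrsp, a lipogenic thyroid-responsive protein, fell by 0.75 ± 0.20 without overlap (adjusted p = 0.0214). Acaca, the carboxylase that commits acetyl-CoA to fat, fell by 1.19 ± 0.37 (adjusted p = 0.0412), and Me1, the malic enzyme that supplies NADPH, by 0.71 ± 0.22 (adjusted p = 0.0423). Fasn, the fatty acid synthase, stood at -0.43 ± 0.45 (adjusted p = 0.593), Acly, the citrate lyase, at -0.60 ± 0.40 (adjusted p = 0.363) and the desaturase Scd1 at -0.32 ± 0.14 (adjusted p = 0.151). Elovl6 passed in all 10 fits that leave out 1 mouse, Thrsp in 8, Pnpla3 in 4, Acaca in 3 and Me1 in 2. The mean of Pnpla3, 3.82 in the combined mice, lay below 4.49, the mean over arrays of the negative-control median, and its fall has no measured size. Acaca and Me1 are named after their values were seen.

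Hilpda, which inhibits lipolysis on the droplet, was 7.02 to 8.00 under PM2.5 and 5.87 to 6.59 in combined mice, without overlap. It fell by 1.16 ± 0.21 (adjusted p = 0.00197) and by 1.00 without mice 2 and 4 (adjusted p = 0.0337), the 1 of 17 droplet genes to pass. Against filtered air Hilpda stood at 0.90 in the PM2.5 mice (adjusted p = 0.0156) and at -0.26 in the combined mice (adjusted p = 0.358). In triglyceride assembly Acsl5 fell by 0.53 ± 0.15 and Agpat2 by 0.59 ± 0.17 of 13 tested, beside 4.73% of tested genes lower. No cholesterol synthesis gene of 19 passed. The list was low in the 2 arrays of highest negative-control signal: its median deviation was -1.02 and -1.17 in combined mice 2 and 4 and 0.48, 0.17 and 0.19 in mice 1, 3 and 5, of which mouse 1 also had a negative-control signal above every PM2.5 array. In fatty acid oxidation Cpt1a, the gate to mitochondria, rose by 0.78 ± 0.23 (adjusted p = 0.0334), and Pdk4 and Etfdh fell, of 28 tested. These counts stand beside 6.95% of tested genes higher and 4.73% lower. Of the genes of these lists, Hilpda and Pdk4 passed without mice 2 and 4, and Acsl5, Agpat2, Cpt1a and Etfdh did not, at -0.38, -0.43, 0.75 and -0.19.

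Of the genes nearest to the drug's known action, Stk11, which encodes the AMPK-activating kinase LKB1, rose by 0.72 ± 0.17 (adjusted p = 0.00955), the 1 of 11 in the AMPK and transporter list to pass, beside 6.95% of tested genes higher. It stood at 0.54 without mice 2 and 4 (adjusted p = 0.144). In gluconeogenesis, 16 tested, the coactivator Crebbp rose by 0.86 ± 0.16, the alanine aminotransferases Gpt and Gpt2 by 1.00 ± 0.28 and 0.68 ± 0.15 and Foxo1 by 0.68 ± 0.22, while Slc37a4, the transporter that brings glucose 6-phosphate to its phosphatase, fell by 0.71 ± 0.14. Slc37a4 was 15.76 to 16.03 under PM2.5 and 15.02 to 15.53 in combined mice, without overlap. Pck1, the gate enzyme of the pathway, stood at 0.21 ± 0.20 (adjusted p = 0.547). The insulin receptor gene Insr rose by 0.81 ± 0.17 (adjusted p = 0.00604), and Khk, the fructokinase, fell by 1.09 ± 0.23 (adjusted p = 0.00522). None of these, nor any other gluconeogenesis gene, passed without mice 2 and 4, where Slc37a4 stood at -0.59 (adjusted p = 0.0667), Khk at -0.60 (adjusted p = 0.0511) and Insr at 0.55 (adjusted p = 0.117). Of the 16 gluconeogenesis genes 4 rose and 1 fell, beside 6.95% and 4.73% of tested genes. The 4 that rose became 2 without PM2.5 mouse 3 or 4 or combined mouse 2 or 4. Respiratory genes were near their PM2.5 level, with medians of -0.02 over 36 complex I genes (Ndufb10 rose, Ndufs1 fell) and -0.01 over 39 genes of complexes II to V (Cox4i1 rose, Uqcrc2 and Sdhd fell).

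Some genes of secreted liver proteins were higher. Of 25 acute-phase genes 4 rose, against 6.95% of tested genes, Crp fell by 0.48 ± 0.15, and the median was 0.47. The list was highest in the 2 arrays of highest negative-control signal: the median deviation was 0.74 and 0.91 in combined mice 2 and 4 and 0.01, 0.25 and 0.24 in mice 1, 3 and 5, and none passed without mice 2 and 4 (median 0.12). The part of that signal in the result was not tested. The count that rose went from 4 to 2 without PM2.5 mouse 3, combined mouse 2 or combined mouse 4, and to 6 without combined mouse 5. Without combined mouse 5, 1027 of all 11844 tested genes rose, against 823 with every mouse. Lrg1, a leucine-rich plasma glycoprotein, was 10.50, 11.91, 9.84, 10.20 and 10.48 under PM2.5 and 10.60, 13.36, 12.16, 13.78 and 11.97 in combined mice. Combined mouse 1 lay within the PM2.5 range. Its difference of 1.79 ± 0.49 (adjusted p = 0.0228) was 0.99 without mice 2 and 4 (adjusted p = 0.316). Lrg1 passed in 6 of the 10 fits that leave out 1 mouse. Itih4, a plasma protein of the inter-alpha-trypsin inhibitor family, rose by 1.28 ± 0.29, and Stat3, the mediator of interleukin 6, by 0.93 ± 0.21. Of 31 coagulation and complement genes 7 rose, against 6.95% of tested genes, and F8 fell (median 0.20). Among them were C4b, which rose by 1.21 ± 0.31, and Serpinf2, the plasmin inhibitor, which rose by 0.76 ± 0.20. None of the 7 passed without mice 2 and 4. The 7 became 3 without PM2.5 mouse 1 or 3, 1 without combined mouse 2 and 2 without combined mouse 4. Lrp1, the hepatic receptor for remnants, rose by 1.28 ± 0.24 and held without mice 2 and 4 (0.76, adjusted p = 0.0327).

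Other lists had few members that passed, and their counts stand beside 6.95% of tested genes higher and 4.73% lower. Ncoa1, a coactivator of nuclear receptors, rose by 1.24 ± 0.22 (adjusted p = 0.00183), as did the xenobiotic receptor Nr1i3 by 0.91 ± 0.20 (adjusted p = 0.00587) and Nr5a2, an activator of bile acid genes, by 0.60 ± 0.15 (adjusted p = 0.0153), with Nr2f2 the 4 of 24 that passed, and Ncoa1 held without mice 2 and 4 (0.96, adjusted p = 0.0339). The autophagy genes Atg7, Gabarapl1 and Mcoln1 rose by 1.01 ± 0.22, 0.71 ± 0.15 and 0.70 ± 0.15, among 4 that rose and 1 that fell of 30. Tiparp, a target of the aryl hydrocarbon receptor that senses combustion products, fell by 0.65 ± 0.14 (adjusted p = 0.00616), the 1 of 6 tested to pass. The 6 targets had no common direction, with 3 above 0 and a median of 0.13. Without combined mice 2 and 4, 1 of them passed as higher and none as lower. Of 24 NRF2 targets 3 fell, among them Akr1b8 by 1.53 ± 0.31 and Gstm2 by 0.84 ± 0.23, both detoxifying enzymes, while the conjugate exporter Abcc3 rose by 0.54 ± 0.17. Without mice 2 and 4 Atg7 stood at 0.99, Tiparp at -0.57, Akr1b8 at -1.07 and Gstm2 at -0.55 (adjusted p = 0.0542, 0.0532, 0.0846 and 0.234), and Ncoa1 was the only gene named to here among these lists that passed. Cyp2c40, a cytochrome P450 that oxidises arachidonic acid, fell by 2.13 ± 0.53 (adjusted p = 0.0135), with signals of 13.16 to 14.78 under PM2.5 and 11.35, 11.91, 13.54 and 13.20 in combined mice 1, 2, 3 and 5 and lower still in mouse 4, so that the groups overlapped, and it stood at -1.43 without mice 2 and 4 (adjusted p = 0.171). Nfkbiz, an inducible regulator of NF-kappaB, rose by 0.75 ± 0.19 and passed in all 3 fits (0.96 without mice 2 and 4 and 1.10 with the covariate).

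Egr1, an immediate early transcription factor, was 5.09, 5.73, 5.72, 7.34 and 5.98 under PM2.5 and 7.23, 5.93, 7.75, 7.71 and 10.79 in combined mice. Combined mouse 5 stood far above the rest. Egr1 rose by 1.91 ± 0.59 (adjusted p = 0.0412), with overlap, but passed in only 3 of the 10 fits that leave out a mouse, and without mouse 5 it missed the threshold. It passed in all 3 fits and was larger in the others, at 2.62 without mice 2 and 4 (adjusted p = 0.0336), 3.13 with the covariate (adjusted p = 0.0134) and 3.30 with only mice 3 and 5 (adjusted p = 0.0394). It was the 1 of 20 immediate early genes to pass, beside 6.95% of tested genes higher and 4.73% lower.

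**Figure D4:**
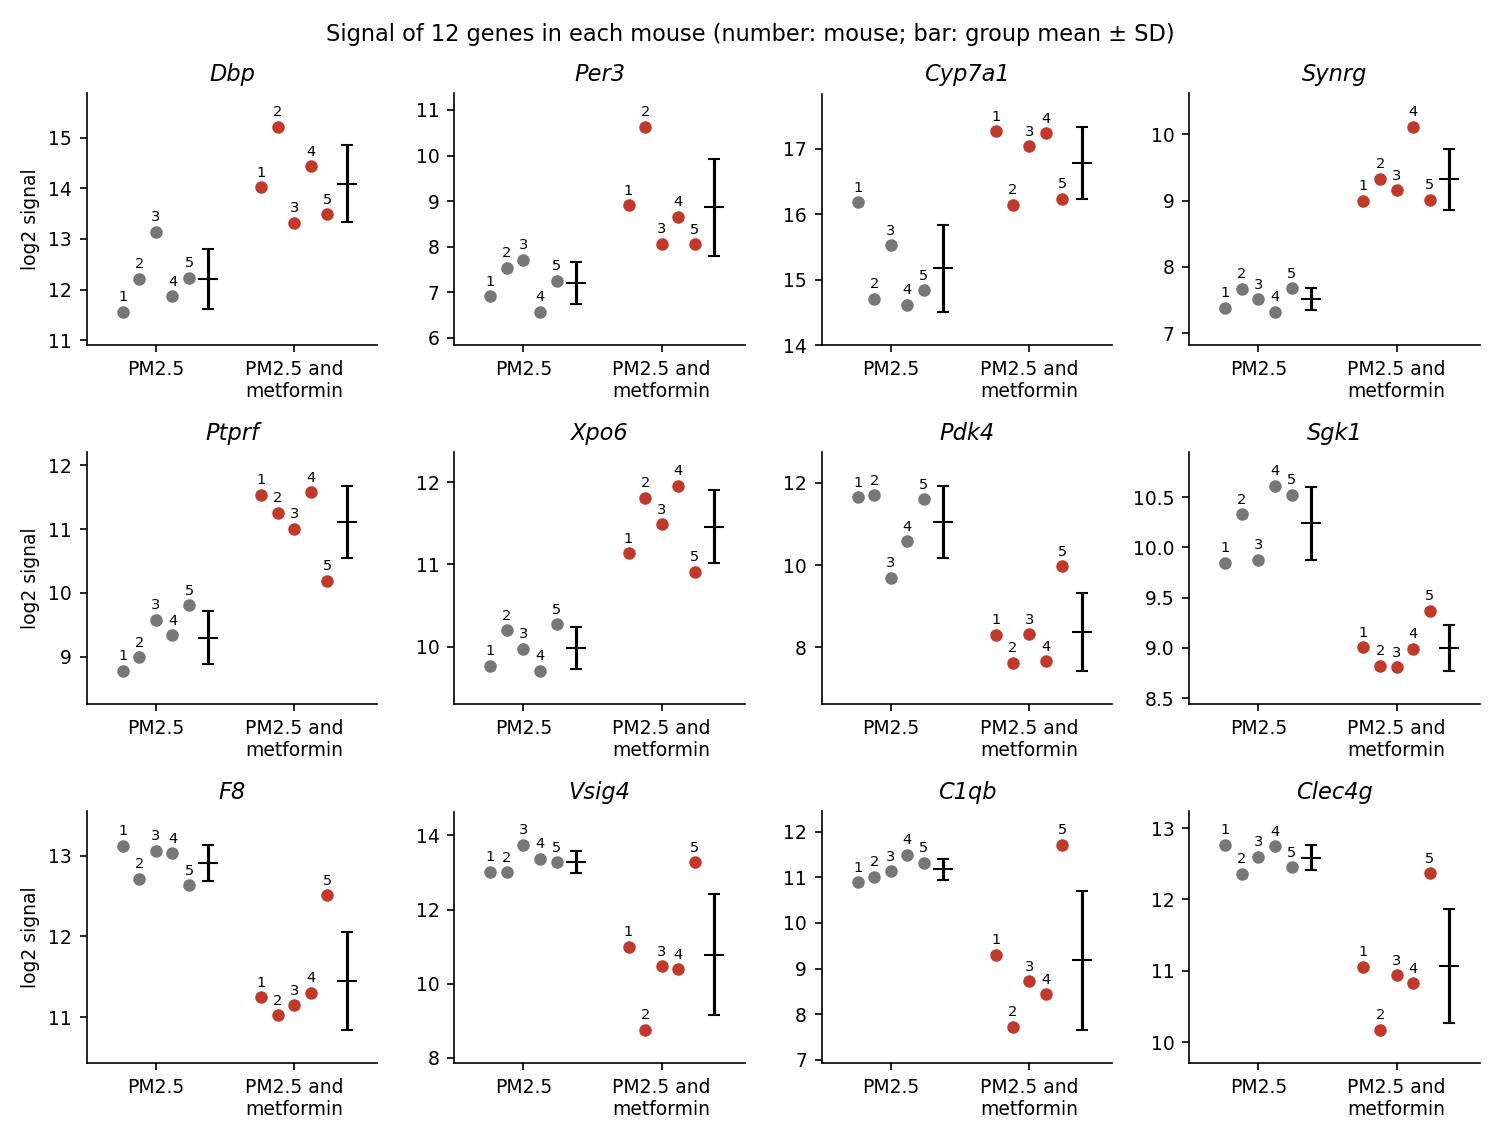
Log2 signal of 12 genes in each PM2.5 mouse (grey) and combined mouse (red), with mouse numbers and group mean ± SD. Synrg, Ptprf, Xpo6, Dbp and Per3 do not overlap between groups on the higher side and Sgk1 and F8 on the lower side, while Vsig4, C1qb and Clec4g are low in combined mice 1 to 4 and within or above the lowest PM2.5 values in mouse 5.

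Whether the metformin difference itself differed with and without PM2.5 was tested as the difference of the metformin differences, (combined minus PM2.5) minus (metformin minus filtered air). By this test 22 genes passed, 19 positive (0.16%) and 3 negative (0.0253%). Fatty acid synthesis genes were 4 of the 22 (Fasn, Acly, Pnpla3 and Aacs), and Gpam, which starts triglyceride synthesis, was another. For these the metformin difference was further below 0 without PM2.5 than under it. Leaving out 1 of the 20 mice gave 7 genes (without metformin mouse 3, or PM2.5 mouse 1 or 2) to 289 (without combined mouse 5), and 14 or fewer without filtered air mouse 2, 3 or 5, metformin mouse 2 or 5, or combined mouse 4.

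Fasn stood at -3.75 for metformin against filtered air and -0.43 under PM2.5, a difference of 3.32 ± 0.64 (adjusted p = 0.0301). Acly stood at -3.41 and -0.60 (2.82 ± 0.57, adjusted p = 0.0375). Pnpla3, a triglyceride and retinyl ester hydrolase, passed too (adjusted p = 0.0301), but its means were 8.28 in filtered air, 3.65 with metformin, 5.25 under PM2.5 and 3.82 in the combined mice. All 4 were under the negative-control 95th percentile, and those of both metformin-treated groups were under the negative-control median of 4.49. Its difference therefore has no measured size, and the test compares mainly the filtered air and PM2.5 levels. Against filtered air the PM2.5 mice themselves stood at -1.89 for Fasn and -1.58 for Acly. Over the lipogenesis list the median metformin difference was -1.69 without PM2.5 and -0.37 under it. These 2 differences share no array, while PM2.5 against filtered air, at -0.87 in the median of this list, shares arrays with both.

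Angptl8, an insulin-induced secreted protein that restrains lipoprotein lipase, stood at -2.30 without and 0.71 under PM2.5 (3.02 ± 0.55, adjusted p = 0.0224). Its signals were 9.73, 9.69, 10.32, 10.89 and 10.85 in PM2.5 mice and 11.86, 10.58, 11.20, 9.80 and 11.62 in combined mice. Angptl4, its fasting-induced relative, went the other way, at 1.94 and -0.86 (-2.81 ± 0.54, adjusted p = 0.0301). Synrg, Ptprf, Svil, an actin-binding protein, and Anks4b, a brush-border scaffold, were also among the positive differences. Synrg stood at 0.08 and 1.81 (1.73 ± 0.25, adjusted p = 0.00378) and Ptprf at 0.09 and 1.81 (1.72 ± 0.36, adjusted p = 0.0481). Svil stood at -0.99 and 1.02, and Anks4b at -0.95 and 1.02. Pde4b, a cyclic AMP phosphodiesterase, stood at -2.12 and -0.09 (2.03). Nr1i2, the xenobiotic receptor PXR, stood at 0.74 and -0.26 and Ivns1abp, an actin-associated kelch protein, at 0.69 and -0.61.

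Against the negative-control signal, 10 genes passed without combined mice 2 and 4 and 44 with the covariate. Synrg, Angptl8, Anks4b and Aacs passed in both, while Pnpla3 and Gpam passed with the covariate only. Fasn and Acly also passed with the covariate only, at 3.07 and 2.73 without mice 2 and 4 (adjusted p = 0.0852 and 0.0698), as did Angptl4 at -2.52 (adjusted p = 0.0621). Ivns1abp (-1.09, adjusted p = 0.0621), Ptprf (1.52, adjusted p = 0.154), Svil (1.72, adjusted p = 0.104), Pde4b (2.14, adjusted p = 0.0698) and Nr1i2 (-1.004, adjusted p = 0.0698) passed with the covariate and not without mice 2 and 4. Of the 20 fits that leave out 1 mouse of the series, Synrg, Anks4b, Ivns1abp and Aacs passed in all 20, Angptl8 in 15, Angptl4 in 14, Pnpla3 in 12, Fasn in 11, Acly in 7 and Ptprf in 4. Aacs, which returns ketone bodies to lipid synthesis, stood at -2.22 without PM2.5 and 0.07 under it (2.29 ± 0.28, adjusted p = 0.000491), with means below the negative-control 95th percentile in both groups with PM2.5. Aacs and Gpam are named after their values were seen.

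**Figure D5:**
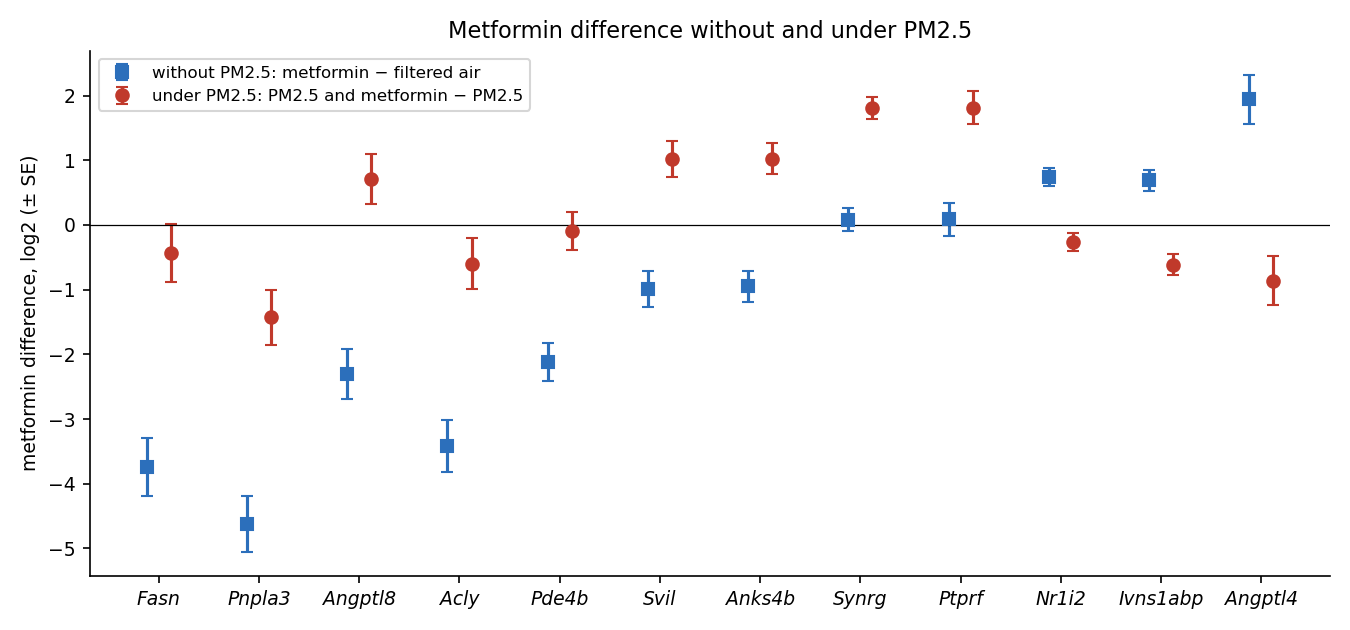
Metformin difference in log2 (± SE) for 12 genes, without PM2.5 (metformin minus filtered air, blue squares) and under PM2.5 (combined minus PM2.5, red circles). Fasn, Pnpla3 and Acly lie far below 0 without PM2.5 and nearer to 0 under it, with Pnpla3 under the negative-control median in both metformin-treated groups, and Synrg and Ptprf lie near 0 without PM2.5 and at 1.81 under it.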

How the data were processed

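RNA of 20 mouse livers, 1 array each, was measured in 4 groups of 5. The authors deposited 1 table of log2 values, a signal for every probe set on every array. The submitters' processing notes name Affymetrix Expression Console; its version, summary method and normalization are not given in the sources used here, and such steps can compress folds. The deposited signals ran from 1.549 to 19.03. The labels name another array type than the one the probe set identifiers belong to, and the annotation of the latter was used. Of 28846 probe sets, 6640 were controls (5222 negative, 1324 positive), 19572 had 1 gene, 0 several and 2634 none, giving 19505 genes, the probe set of highest mean standing for each of the 55 with several. Genes at or below the 40th percentile of mean signal (log2 4.051) were left out, and 11844 remained.

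Groups were compared in 1 limma model over the 20 arrays (limma 3.58.1, R 4.3.3, lmFit and eBayes), two-sided, with Benjamini-Hochberg adjustment over all genes tested, and a gene passed at an adjusted p under 0.05. Values after ± are standard errors unless SD is named. The model takes 1 spread per gene over all groups. Where the combined mice varied most, its standard error can be smaller than the compared groups alone would give. Every p of a gene is from this model or an alternative of it. The number of arrays limits the precision. The method was checked on simulated data, drawn independently with 1 spread per gene for all 20 arrays. That check does not cover the wider spread of the combined mice or genes that vary together. No arrays held identical values.

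Alternatives were the filter, quantile normalization, median centring, the mean of probe sets, trend and robust variance, array weights, the 10 arrays alone, leaving out each mouse, leaving out combined mice 2 and 4, and the negative-control median as covariate. The positive-control covariate and the fit with combined mice 3 and 5 were added after seeing the data. The comparison, lists and motifs were chosen with earlier results of these data known. Named genes are the 10 largest rises and falls among those that passed (provisional names, and genes below the negative-control 95th percentile in both groups, passed over), up to 3 of lowest p in each list, the lowest p in a described list where none passed, and a fixed set. For the difference of differences they are the 5 largest each way and the 20 largest rises and falls. Some genes of the fixed set were not analysed here. Promoters are from RefSeq (GRCm38.p6), matched by symbol, and gene spans from RefSeq positions matched by gene identifier.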

Additional observations from a re-analysis of the deposited data

Results flagged for a closer look

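In 9 of 260 groups of 5 mice examined among the named genes and control signals, 1 mouse lay further from its nearest neighbour than the rest of its group's spread allows at the 95% level, and chance would do so in about 1 group of 20. F8 was 12.513 in combined mouse 5, against 11.303 or less in the other 4. G6pc, the glucose 6-phosphatase, was 16.068 in combined mouse 2 (the others 16.813 to 17.039), Cyp2u1, a fatty acid hydroxylase, was 8.605 in combined mouse 2 (the others 7.083 to 7.476) and Abcc3 was 15.6 in combined mouse 3 (the others 15.197 to 15.291). Among the PM2.5 mice, Arntl was 9.434 in mouse 3 (the others 10.357 to 10.556), Nr1d1, the clock repressor REV-ERB alpha, was 8.893 in mouse 1 (the others 9.557 to 9.737) and Uqcrc2 was 13.72 in mouse 1 (the others 13.056 to 13.209). The ribosomal protein genes Rpl10a and Rpl3 were 15.353 in PM2.5 mouse 4 (the others 15.039 to 15.075) and 13.988 in PM2.5 mouse 2 (the others 14.591 to 14.686).

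For 12 named genes the metformin difference under PM2.5 differed from that without PM2.5 in limma's test of the difference. The positive differences were 3.32 for Fasn, 3.195 for Pnpla3, 3.016 for Angptl8, 2.817 for Acly, 2.026 for Pde4b, 2.005 for Svil, 1.975 for Anks4b, 1.729 for Synrg and 1.723 for Ptprf, in log2. The negative ones were -2.805 for Angptl4, -1.308 for Ivns1abp and -0.998 for Nr1i2. Pnpla3 was under the negative-control median in both metformin-treated groups, so the size of its difference is not known.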

How the results depend on the processing

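Of the 102 named genes that passed between the combined and PM2.5 groups, 97 still passed after quantile normalization, 95 after median centring, 86 without a filter, 84 with array weights, 54 on the compared arrays alone, 23 without combined mice 2 and 4, 13 with the negative-control covariate, 5 with combined mice 3 and 5 only and 0 with the positive-control covariate, a signal on which the groups do not overlap. The 1383 genes became 509 on the compared arrays alone, 206 without combined mice 2 and 4, 79 and 0 with the negative-control and positive-control covariates in limma (1602 and 1204 at an unadjusted p under 0.05), 24 with combined mice 3 and 5, and 637 to 2143 with 1 mouse left out. The 22 genes of the difference of differences became 59 with the filter at the negative-control 95th percentile, 108 with array weights, 44 with the negative-control covariate, 10 without combined mice 2 and 4, 1 with the positive-control covariate, 9 with combined mice 3 and 5, and 7 to 289 with 1 mouse left out. The negative-control difference ran from 0.102 to 0.189 with 1 mouse left out, with p = 0.0317 in the exact permutation test without combined mouse 3 or 5. The cause of these changes was not tested.

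Some values turned sign. Among the genes named in the text, the only one that had passed in the comparison under PM2.5 was Sec24d, which stood at -0.045 with the positive-control covariate. Over all 1383 genes that passed, 1377 kept their sign with that covariate. That covariate also turned Cd4 to 0.341, Mt2 to 0.491 and Idi1 to 0.88, and Idi1 was 0.163 with the negative-control covariate and 0.111 without combined mice 2 and 4. Mt1, at 0.07, was -0.07 with array weights, -0.173 with the negative-control covariate, -0.291 without combined mice 2 and 4, -0.09 with mice 3 and 5, and -0.089 to 0.258 with 1 mouse left out. The difference of differences, which had not passed for the 5 genes named next, without combined mice 2 and 4, and with mice 3 and 5, was -0.14 and -0.346 for Dbp, -0.187 and -0.474 for Per3, 0.126 and 0.265 for Mr1 and 0.195 and 0.867 for Cyp2c40. It was 0.03 for Mr1 with the positive-control covariate, and with 1 mouse left out it ran from -0.749 to 0.047 for Lrg1 and from -0.109 to 0.574 for Per3. No paired analysis was possible because no mouse numbers in the labels are shared between groups. Signal near the negative controls limits what can be said of dim genes.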

Other observations

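Several gene groups not described above had few or no members that passed. None of 24 interferon-induced genes tested passed (median -0.18), and their median deviation from the PM2.5 mean was -0.12, -1.003, -0.51, -0.52 and 1.45 in combined mice 1 to 5. Combined mouse 5 was the only one above the PM2.5 mean. The lowest p belonged to Stat2, which carries the interferon signal, at 0.75 ± 0.25 (adjusted p = 0.0542), and without combined mouse 5, 8 of these genes passed as lower. In that fit 1116 of the 11844 tested genes passed as lower, against 560 with every mouse. Saa1, a serum amyloid gene of the acute phase, was 9.90, 13.02, 9.08, 11.52 and 9.57 in PM2.5 mice and 10.50, 14.71, 10.11, 15.30 and 11.30 in combined mice, highest in combined mice 2 and 4.

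The counts of this paragraph stand beside 6.95% of tested genes higher and 4.73% lower. Of 20 genes of the urea cycle and amino acid breakdown 4 rose and none fell. Among the 4 were Nags, whose product switches on the cycle, by 0.60 ± 0.14 (adjusted p = 0.00914) and Bckdha, of branched-chain amino acid breakdown, by 0.66 ± 0.16 (adjusted p = 0.0124). None of the 4 passed without combined mice 2 and 4. Of 15 heat shock genes 2 fell, the chaperones Hsp90aa1 by 1.26 ± 0.35 (adjusted p = 0.0251) and Hspa4l by 0.82 ± 0.26 (adjusted p = 0.0416), and they stood at -0.73 and -0.36 without combined mice 2 and 4 (adjusted p = 0.326 and 0.490). Of 48 mitochondrial ribosomal protein genes 3 fell and none rose (median -0.04), and of 40 cytosolic ones 2 fell and 1 rose (median -0.06). No proteasome gene of 30 passed (median 0.04), the lowest p being that of Psma6 at 0.37 ± 0.15 (adjusted p = 0.121). Cdkn1a, the cell cycle inhibitor p21, stood at -1.94 ± 0.91 (adjusted p = 0.170), Fgf21, a fasting hormone of the liver, at 0.79 ± 0.51 (adjusted p = 0.344), and Cirbp, whose RNA-binding product is induced by cold, at -1.03 ± 0.41 (adjusted p = 0.107).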
